A study of Rattus norvegicus with 241 samples.

Results

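The genes described here are 8 genes of the cholesterol pathway that carry the SREBP2 programme: HMGCS1, IDI1, FDFT1, SQLE, LSS and DHCR7, which encode enzymes of sterol synthesis, and INSIG1 and SREBF2, which encode regulators of it. They were chosen by name as SREBP2 targets, with symbols matched regardless of case, and all 8 of 8 were found in every bulk and single-cell table, among 21707 genes in all. The study asked what short-term inhibition of the TGF-beta receptor does to the mammary gland of female rats. Rats received vehicle or the receptor kinase inhibitor LY2157299 (TGFBRi) at 75 mg/kg by gavage, with repeated doses each day for 10 days, or for 21 days in the estradiol (E2) experiment.

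Young virgin ACI rats, an inbred strain, were dosed from 35 days of age and sampled 0, 7 and 14 days after the last dose, with 3 rats per group. Young virgin Sprague Dawley (SD) rats, an outbred strain, were dosed from 24 days of age and sampled at day 0, with 4 rats per group. SD rats dosed from 21 days of age were then given the carcinogen N-nitroso-N-methylurea (NMU) and sampled 87 days later as vehicle tumor-bearing, TGFBRi tumor-free and TGFBRi tumor-bearing rats, 3 of each, and tumors of 3 vehicle and 3 TGFBRi rats were sorted as well. Adult ACI rats of 18 to 24 weeks, virgin or parous (with an earlier pregnancy), were sampled at day 0 with 4 rats per group, except for leukocytes, of which the parous vehicle group held 2 rats and the virgin TGFBRi group 3. In the E2 experiment, virgin ACI rats dosed from 38 days of age then carried empty or E2 implants. They were sampled months after implantation, at the end of that experiment. The groups were 4 vehicle and 3 TGFBRi rats without E2, 4 tumor-bearing vehicle rats, 4 tumor-free TGFBRi rats and 2 tumor-bearing TGFBRi rats with E2. With E2, all vehicle rats bore tumors and the main TGFBRi group did not, so treatment and tumor status cannot be told apart between these groups. Only the 2 tumor-bearing TGFBRi rats share the tumor status of the vehicle rats with E2. In vehicle rats E2 and tumor status cannot be told apart. Bulk RNA came from sorted basal (CD24+CD29high), luminal (CD24+CD29low) and leukocyte (CD45+) cells, or EPCAM+ and CD45+ cells of tumors. Single cells came at day 0 from young virgin rats dosed from the same ages as in the young bulk groups, 35 days (ACI) and 24 days (SD): sorted basal and luminal cells of ACI (3 vehicle, 3 TGFBRi) and SD rats (3 vehicle, 6 TGFBRi), and whole SD glands (3 vehicle, 6 TGFBRi).

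Cholesterol is made from acetyl-CoA. HMGCS1 makes HMG-CoA for the mevalonate route, IDI1 interconverts the 5-carbon isoprene units, FDFT1 joins farnesyl units into squalene, SQLE oxidizes squalene, LSS closes the rings to lanosterol, and DHCR7 reduces 7-dehydrocholesterol in a last step. SREBF2 encodes SREBP2, a transcription factor held in the endoplasmic reticulum that is cut free when membrane sterol falls and then raises the genes of the pathway, its own included. INSIG1 holds SREBP2 and its escort protein in the endoplasmic reticulum when sterol is plentiful, and is itself an SREBP2 target. In the mammary gland these genes supply membrane to growing ducts and lipid to milk.

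The upstream sequences of HMGCS1 and IDI1, whose counts were higher in basal cells, and of DHCR7, whose counts were higher in luminal cells, are shown to let the letters before each gene start be compared. They are the 250 bases before the start in the RefSeq annotation of GRCr8, written 5′ to 3′ on the gene's strand, with capitals at ATTGG, which is CCAAT read on the other strand. CCAAT is the box bound by NF-Y, a usual partner of SREBP2.
HMGCS1, chr2:53382054-53382303, plus strand: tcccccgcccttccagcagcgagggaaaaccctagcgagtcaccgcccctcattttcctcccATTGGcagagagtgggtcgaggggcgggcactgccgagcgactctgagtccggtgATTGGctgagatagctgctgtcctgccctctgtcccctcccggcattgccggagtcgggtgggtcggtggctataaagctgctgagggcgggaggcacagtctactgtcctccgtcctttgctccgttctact
IDI1, chr17:66547525-66547774, minus strand: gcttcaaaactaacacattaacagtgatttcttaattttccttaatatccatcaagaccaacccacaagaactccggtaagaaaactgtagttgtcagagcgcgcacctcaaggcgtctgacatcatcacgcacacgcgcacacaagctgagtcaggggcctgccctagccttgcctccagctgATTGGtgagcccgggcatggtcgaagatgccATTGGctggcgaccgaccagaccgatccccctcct
DHCR7, chr1:208444184-208444433, plus strand: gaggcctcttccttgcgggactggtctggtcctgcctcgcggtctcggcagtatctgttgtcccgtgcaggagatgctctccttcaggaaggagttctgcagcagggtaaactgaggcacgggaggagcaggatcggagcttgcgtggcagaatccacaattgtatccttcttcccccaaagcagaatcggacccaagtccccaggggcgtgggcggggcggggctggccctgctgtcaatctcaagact
Of the 8 genes, 6 had an entry, SQLE and FDFT1 being the others. CCAAT on either strand was in 5 of the 6, DHCR7 being the exception, in 11 of 13 other genes of cholesterol synthesis with an entry and in 34% of 33469 upstream sequences of the same length. The GC box GGGCGG, on either strand, was in 5 of 6 (not in IDI1) and in 30.5% of all. The sterol element TCACNCCAC was in 0 of 6 and in 0.974% of all, and its shorter core CACNCCAC, which lies inside it, was in 1 of 6 (INSIG1) and in 4.89% of all. These are matches of letters only.

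The bulk values are normalized read counts, which can be compared between rats of one fraction and experiment. They rest on 4194912 to 52314784 reads on genes per sample. A bulk change here is a log2 change ± SE with the Benjamini-Hochberg adjusted p of limma, written FDR, and passed at 0.05 or less. In sorted cell pools, fewer cells of a type and less RNA per cell cannot be told apart. In young ACI rats the basal and luminal sorts of vehicle rats matched their labels: the summed level of the basal marker list ran from 10264 to 17811 reads per 1000000 (RPM) in vehicle basal cells and from 67.2 to 194 in vehicle luminal cells. The leukocyte sort of their day 0 vehicle rats also held fibroblast markers, summing to 12717 to 32434 RPM.

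Among the young ACI basal and luminal libraries, 7 libraries of 4 rats stood apart: basal and luminal cells of TGFBRi replicate 1 and vehicle replicate 3 at day 7 and of TGFBRi replicate 3 at day 14, and basal cells of vehicle replicate 1 at day 14. For vehicle replicate 3 at day 7 the labels disagree: the descriptions of its 2 epithelial samples call it treated, and its titles and treatment field call it control, as which it was taken. The summed level of 22 NDUFA and NDUFB genes (respiratory complex I) was 4932 to 10729 RPM in them and 440 to 3671 in the other 29. In these 7, against the rest of their own groups, IDI1 was higher by a mean of 1.53 (basal) and 1.56 (luminal) on the log2 scale, while HMGCS1 differed by −1.0 and −1.4 and INSIG1 by −0.90 and −1.44. Among expressed genes these stood at percentiles 87.3 and 84.6 (IDI1), 26.4 and 15.2 (HMGCS1) and 28.8 and 14.6 (INSIG1). LSS differed by −0.38 and −1.26, SQLE by −0.499 and −0.555, and DHCR7 by −0.34 and −0.61. FDFT1 differed by 0.19 in both, and SREBF2 by −0.05 and −0.003. In the other tables the highest complex I levels were 17700 (NMU luminal), 7580 (NMU basal), 7010 (NMU tumor EPCAM+) and 6860 (SD luminal). Young ACI tests of the 8 genes that rest on them are given with and without them, a choice made after the data were seen, while counts of other genes include them.

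Basal and luminal cells of vehicle rats differed in which enzymes they held at a high level. In young ACI rats, over 3 days and 9 rats, 7 of 8 genes passed, in a comparison in which 38% of all genes passed. HMGCS1 ran from 1082 to 6724 (median 3064) in basal and from 955 to 4919 (median 1917) in luminal cells. SQLE ran from 361 to 1434 (median 997) against 204 to 905 (median 404), and IDI1 from 1348 to 6369 (median 3990) against 481 to 4436 (median 1419). These ranges overlapped, with basal cells higher by 0.71 ± 0.22 (FDR = 0.017), 1.21 ± 0.22 (FDR = 0.00026) and 1.17 ± 0.31 (FDR = 0.0064). DHCR7 went the other way with no overlap, from 273 to 657 (median 484) in basal and from 884 to 3515 (median 1104) in luminal cells, and was lower in basal cells by −1.54 ± 0.22 (FDR = 2.4e-05). FDFT1 (−0.78 ± 0.17, FDR = 0.0012), LSS (−0.51 ± 0.18, FDR = 0.033) and the regulator SREBF2 (−0.43 ± 0.16, FDR = 0.046) were lower in basal cells, and INSIG1 had a difference of −0.17 ± 0.22 (FDR = 0.59). Without the libraries that stood apart the same 7 genes passed, with 50.5% of all genes, and with RPM in place of the deposited scaling HMGCS1, LSS and SREBF2 did not.

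In SD rats, which were scaled apart from ACI rats and not tested against them, HMGCS1, SQLE and IDI1 were again higher and DHCR7 lower in basal cells. HMGCS1 in basal cells was 1694, 3347, 3524 and 3532 in the 4 vehicle rats, and 283, 687, 842 and 1261 in their luminal cells. SQLE was 758, 1392, 1266 and 1141 in basal and 113, 320.3, 297 and 424 in luminal cells. DHCR7 was 270.5, 407, 563 and 397 in basal and 1619, 1795, 3047 and 1961 in luminal cells. None of these pairs of groups overlapped, and neither did IDI1. The differences were 2.10 ± 0.43 for HMGCS1 (FDR = 0.0022), 2.09 ± 0.39 for SQLE (FDR = 0.0012), 1.93 ± 0.34 for IDI1 (FDR = 0.00095), 0.70 ± 0.25 for INSIG1 (FDR = 0.037) and −2.36 ± 0.28 for DHCR7 (FDR = 8.9e-05), so that 5 of 8 genes passed where 54.3% of all genes did. With RPM the median of all genes moved from 0.158 to 0.697, the split of all calls from 3815 higher and 3174 lower to 5075 and 2041, and the differences were 2.66 for HMGCS1, 2.65 for SQLE, 2.49 for IDI1, 1.26 for INSIG1 and −1.80 for DHCR7, all of which passed. The complex I levels of the 4 vehicle rats were 6740, 2780, 6610 and 3000 RPM in luminal and 2640 to 2950 in basal cells. Libraries were set apart in young ACI epithelium only, so no fit left out those at 6740 and 6610.

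**Figure D1:**
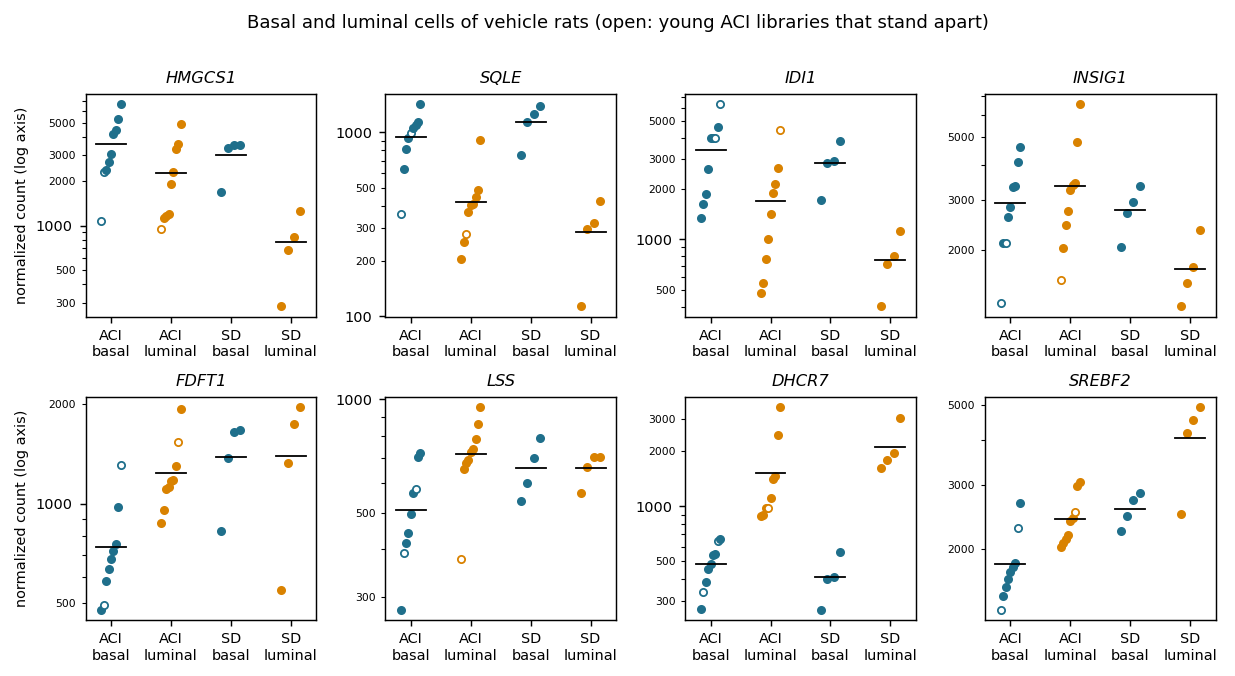
Normalized read counts (log axis) of the 8 genes in basal and luminal cells of vehicle rats, 9 young ACI and 4 young SD rats per fraction. Each point is a rat, lines are means and open points are libraries that stood apart. DHCR7 sits lower in every basal sample than in every luminal sample of its strain, while HMGCS1, SQLE and IDI1 sit higher in basal cells on average, with no overlap in SD rats.

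The other genes of the pathway were counted in the same fits. Of 16 other cholesterol synthesis genes tested in ACI rats, 0 were higher and 3 lower in basal cells (PMVK −1.57, EBP −1.52, FDPS −1.06), where 38% of all genes passed. In SD rats 4 were higher, among them CYP51 (1.76) and SC5D (1.46), and 5 lower, among them EBP (−2.44) and PMVK (−2.27), 9 of 16 where 54.3% of all genes passed. The medians of the 16 were −0.26 and 0.58, beside 0.14 and 0.16 over all genes. Of 6 genes of SREBP processing tested in ACI rats 0 were higher and 2 lower in basal cells, and of 9 genes of uptake and transport 1 was higher and 3 lower. SREBF1, which drives fatty acid synthesis, was lower in ACI basal cells (−2.94), as was SCARB1, a lipoprotein receptor (−3.50), while VLDLR, another receptor, was higher (2.46).

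In luminal cells of young ACI vehicle rats, the early enzymes had lower counts at day 14 than at day 0. HMGCS1 was 3577, 4919 and 3290 at day 0 and 1171, 1206 and 1126 at day 14. IDI1 was 1887, 2632 and 2116 at day 0 and 556, 763 and 481 at day 14. DHCR7 was 884, 973 and 898 at day 0 and 3515, 1104 and 2452 at day 14. None of these groups overlapped, but with all libraries no gene of the 8 passed: the changes were −1.73 ± 0.49 for HMGCS1 (FDR = 0.19), −1.89 ± 0.53 for IDI1 (FDR = 0.19) and 1.21 ± 0.40 for DHCR7 (FDR = 0.31), where 0.389% of all genes passed. Without the libraries that stood apart, of which these 2 groups hold none, the SEs were smaller (0.19 for HMGCS1, 0.23 for IDI1), and HMGCS1 (FDR = 6.5e-05), IDI1 (FDR = 9.8e-05), SQLE (−1.11, FDR = 0.04) and DHCR7 (FDR = 0.035) passed, with 5.07% of all genes. The luminal progenitor marker list rose alongside, from 6350 to 9466 RPM at day 0 to 17908 to 34502 at day 14, and its part in these changes was not tested.

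Basal cells gave the same order for HMGCS1 with all libraries, and for IDI1 without those that stood apart. HMGCS1 was 5289, 6724 and 4447 at day 0 and 1082, 2722 and 2392 at day 14, and the first of these stood apart. IDI1 was 3990, 4607 and 3992 at day 0 and 4006, 1860 and 1348 at day 14, so only the library that stood apart reached the day 0 level. With all libraries 0 of 8 passed and 0.0384% of all genes; without them HMGCS1 (−1.08 ± 0.21, FDR = 0.02) and IDI1 (−1.40 ± 0.24, FDR = 0.012) passed, with 1.41% of all genes. In the other 4 comparisons of a day with day 0 (0.254% of all genes), 0 of 32 gene tests passed. Both day 7 epithelial comparisons hold libraries that stood apart, and without them HMGCS1 (−0.88, FDR = 0.02) and IDI1 (−0.88, FDR = 0.043) passed in luminal cells, with 7.11% of all genes, and IDI1 (−1.03, FDR = 0.041) in basal cells, with 1.98%. That leaves 2 vehicle rats at day 7, with luminal HMGCS1 at 1917 and 2319.5. Over all 6 comparisons with all libraries limma and edgeR passed 0 of 48, DESeq2 4, and 11 had an unadjusted p under 0.05. The share of all genes by DESeq2 or at that unadjusted p is not given, so the last 2 are counts only.

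In luminal cells at day 14, SQLE, FDFT1 and IDI1 had higher counts in all 3 TGFBRi rats than in vehicle rats, and no gene of the 8 passed with all libraries. SQLE was 884, 645 and 479 with TGFBRi and 204, 367 and 255 with vehicle. FDFT1 was 1946, 2044 and 1880.5 with TGFBRi and 873, 1123 and 961 with vehicle. IDI1 was 1848, 2200.1 and 4349 with TGFBRi against 556, 763 and 481, and these 3 genes did not overlap between the groups. HMGCS1 (3274, 3229 and 833) and the feedback gene INSIG1 (10504, 8704 and 1675) were high in 2 TGFBRi rats and below all vehicle rats in the third, the library that stood apart; the vehicle rats had 1126 to 1206 and 2031 to 3265. The limma test over all libraries passed 0 of 8 genes and 0% of all 15181 genes, of which 1268 had an unadjusted p under 0.05. Its changes were 1.28 ± 0.37 for SQLE (FDR = 0.3), 2.14 ± 0.53 for IDI1 (FDR = 0.23), 1.00 ± 0.25 for FDFT1 (FDR = 0.23) and −1.35 ± 0.40 for DHCR7 (FDR = 0.3), and these 4 are the genes that DESeq2 passed.

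Without the libraries that stood apart, 5 of 8 genes were higher with TGFBRi at day 14: INSIG1 (1.86 ± 0.29, FDR = 0.006), IDI1 (1.77 ± 0.25, FDR = 0.0056), SQLE (1.49 ± 0.34, FDR = 0.035), HMGCS1 (1.48 ± 0.21, FDR = 0.0056) and FDFT1 (1.02 ± 0.21, FDR = 0.023), with 1.79% of all genes. This rests on 2 TGFBRi and 3 vehicle rats. The same 3 vehicle rats stand behind the fall from day 0 to day 14, so both results share them. Of 16 other synthesis genes 15 had a positive change (median 0.47, beside 0.04 over all genes) with all libraries, and 0 passed. Luminal progenitor markers were lower with TGFBRi here, 9370 to 17415 against 17908 to 34502 RPM. The complex I level also separated the libraries behind the 5 calls, at 1320 and 1520 RPM in the 2 TGFBRi rats and 2030 to 2340 with vehicle, and the part of either was not tested.

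**Figure D2:**
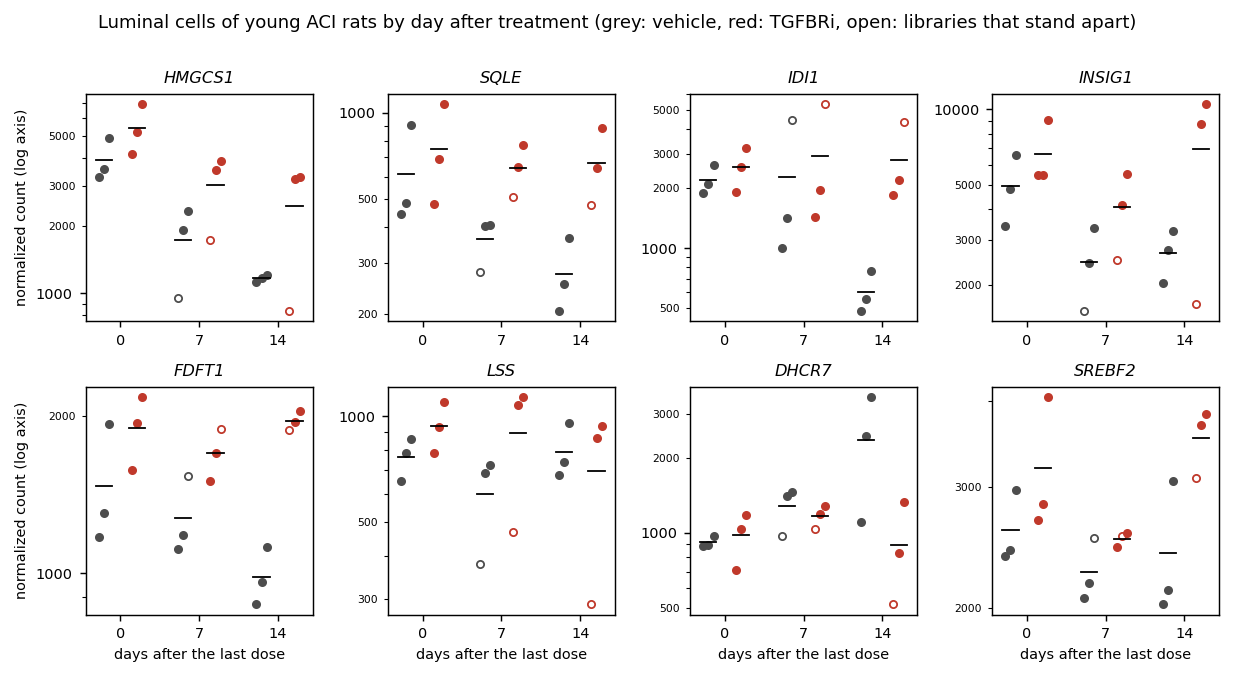
Normalized read counts of the 8 genes in luminal cells of young ACI rats by days after the last dose, vehicle in grey and TGFBRi in red, 3 rats each. Open points are libraries that stood apart and lines are means. At day 14 the 3 vehicle rats are at 1126 to 1206 for HMGCS1 and the 3 TGFBRi rats at 3274, 3229 and 833, of which the last stood apart.

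In leukocytes of young ACI rats at day 0, HMGCS1 was the 1 gene of 8 that passed with TGFBRi, where 2.85% of all genes did. It was 3769, 6171 and 5001 with TGFBRi and 2006, 2037 and 3148 with vehicle, with no overlap, a change of 1.06 ± 0.24 (FDR = 0.03). IDI1 was 2344, 3263 and 3391 against 1106, 1163 and 2565, and did not pass. The sorts differed in other markers as well: the summed basal list was 5.51 to 8.44 RPM with TGFBRi and 150 to 438 with vehicle, the fibroblast list 1002 to 7325 and 12717 to 32434, and the neutrophil list, of which 4 of 6 genes were higher with TGFBRi, 463 to 1881 and 28 to 88.8. Their part in the HMGCS1 result was not tested. The call was kept in 3 of 6 fits that each left out a rat.

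In adult virgin basal cells HMGCS1 was lower with TGFBRi. It was 871, 1421, 1080.5 and 1049.7 with TGFBRi and 1848, 2394, 1999 and 1555 with vehicle, without overlap, a change of −0.82 ± 0.23 (FDR = 0.033). LSS was 1404, 1434, 1482 and 1098 against 974, 1004, 939 and 784, also without overlap, and higher by 0.55 ± 0.18 (FDR = 0.072). DHCR7 was listed at 0 in 1 TGFBRi rat and was 139, 223 and 585 in the others, against 445 to 745. In this comparison 8.73% of all genes passed, with a median over all genes of −0.25. Fibroblast markers summed to 446 to 5481 RPM with TGFBRi and 1221 to 3057 with vehicle, and 2 of 9 were lower; their part was not tested. The HMGCS1 call was kept in 2 of 8 fits that each left out a rat, and lost in a fit of the compared groups alone.

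The other 27 bulk comparisons of TGFBRi with vehicle passed 0 of 216 gene tests, where 0.232% of all genes passed. They include both SD epithelial sorts, NMU basal cells, NMU leukocytes and tumors, parous glands and the E2 groups. In NMU basal cells the complex I level separated the tumor-bearing TGFBRi rats (5580 to 7580 RPM) from both other groups. It was 2380 to 3030 in vehicle and 1610 to 2400 in tumor-free TGFBRi rats. Over all 32 comparisons with vehicle, limma and edgeR passed 2 of 256, DESeq2 11, and 29 had an unadjusted p under 0.05. For such counts by DESeq2 or at an unadjusted p, here and below, the share of all genes is not given, so they are counts only. Differences of the TGFBRi effect between days, parities or E2 states passed 0 of 88 (0.108% of all genes, 9 under an unadjusted 0.05, 2 by DESeq2). Without the libraries that stood apart, the 5 calls at day 14 were the only ones among 48 tests of TGFBRi in young ACI epithelium, and 0 of 32 differences between days passed. For these refits the share of all genes is given above for luminal cells at day 14 only.

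In luminal cells of NMU-treated SD glands DHCR7 did not pass, and its lowest vehicle values came from libraries with a high complex I level. It was 332, 267.5 and 838 in tumor-bearing vehicle rats, 1151, 1142 and 2111 in tumor-free TGFBRi rats, and 1378, 2221 and 1426 in tumor-bearing TGFBRi rats. Both TGFBRi groups lay above all vehicle rats. The vehicle rats at 332 and 267.5 had complex I levels of 17700 and 9100 RPM, while the one at 838, vehicle replicate 3, had 2860 and the 6 TGFBRi rats 2560 to 5640. The changes were 1.74 ± 0.46 (FDR = 0.072) and 1.96 ± 0.46 (FDR = 0.061), and did not pass, where 0.948% and 0.212% of all genes did. With the complex I level as a covariate, a fit added after the data were seen, they were 1.12 (FDR = 0.92) and 1.56 (FDR = 0.26). With RPM, which moved the median of all genes from −0.32 to 0.02 and from −0.26 to 0.31, both DHCR7 changes passed (2.11 and 2.56). They also passed without vehicle replicate 3 (2.23, FDR = 0.0019, and 2.45, FDR = 0.0011), a fit that keeps both vehicle libraries with a high complex I level and drops the other, and neither passed without vehicle replicate 1 or without vehicle replicate 2. IDI1 was 476, 1057 and 676 with vehicle and 143, 253 and 367 in tumor-free TGFBRi rats, a change of −1.56 that did not pass (FDR = 0.094; −1.58 and FDR = 0.045 without vehicle replicate 3, and −1.74 and FDR = 0.76 with the complex I level as a covariate). The vehicle rat with the highest complex I level had the lowest vehicle IDI1 (476), while IDI1 was higher in the young ACI libraries that stood apart. DHCR7 differed in those by a mean of −0.34 (basal) and −0.61 (luminal) on the log2 scale. The covariate fit aside, the part of this level in the NMU luminal changes was not tested. Within TGFBRi, tumor-bearing against tumor-free rats, in 5 comparisons over the NMU and E2 experiments, passed 0 of 40 gene tests (1.11% of all genes, 5 under an unadjusted 0.05, 2 by DESeq2).

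Parity gave 2 calls, both in basal cells of TGFBRi-treated adult rats, where 12.1% of all genes passed. HMGCS1 was 2159, 2572, 1790.5 and 1456 in parous and 871, 1421, 1080.5 and 1049.7 in virgin rats, higher in parous rats by 0.84 ± 0.23 (FDR = 0.024) with no overlap. LSS was 896, 885, 764 and 804 in parous and 1098 to 1482 in virgin rats, lower by −0.69 ± 0.18 (FDR = 0.023) with no overlap. These share the virgin TGFBRi rats with the treatment result above, so the same 4 rats carry both. The calls were kept in 6 and 5 of 8 fits that each left out a rat, and both were lost in a fit of the compared groups alone. The mural marker list moved with parity here, from 92.2 to 334 RPM in virgin to 342 to 1079 in parous rats (5 of 7 genes higher), and its part was not tested.

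In vehicle luminal cells SQLE was 296, 501, 307 and 523 in virgin and 531, 525, 1940.5 and 1269 in parous rats, and HMGCS1 was 919, 3553, 1366 and 1349.8 against 1686, 2233, 4595 and 4036. The SQLE groups did not overlap, 15 of 16 other synthesis genes had a positive change (median 0.46, beside −0.04 over all genes), and 0 of 8 genes and 0% of all genes passed. The other 4 parity comparisons passed 0 of 32 (0% of all genes) and the means over both treatments 0 of 24 (0.375%).

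With E2, INSIG1 and SQLE had lower counts in luminal cells of TGFBRi rats, and no gene of the 8 passed in vehicle rats. In TGFBRi rats INSIG1 was 10260, 11804 and 12915 without E2 and 3243, 4635, 6391 and 2924 with E2 in tumor-free rats. SQLE was 824, 304 and 413 without and 213, 147, 127 and 115 with E2. Neither gene overlapped between the groups, and the changes were −1.50 ± 0.38 (INSIG1, FDR = 0.033) and −1.67 ± 0.45 (SQLE, FDR = 0.042), where 4.58% of all genes passed. HMGCS1 (−1.15, FDR = 0.11) and IDI1 (−1.53, FDR = 0.16) did not pass. Each of the 2 calls was kept in 1 of 7 fits that left out a rat, and SQLE was lost with RPM and with a fit of the compared groups alone.

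In vehicle rats SQLE was 214, 213.5, 604 and 208 without E2 and 139, 140.2, 139.5 and 105.4 with E2, and IDI1 was 670.2, 1447, 2271 and 1013 against 430.0, 318, 545 and 544. Neither overlapped, the changes were −1.08 (FDR = 0.23) and −1.44 (FDR = 0.22), LSS differed by 0.23, and 0 of 8 genes passed where 1.48% of all genes did. In the 2 tumor-bearing TGFBRi rats with E2, SQLE was 322 and 577, above every other rat with E2. Milk protein genes changed in the same cells: their sum was 9452 to 15884 RPM without E2 and 113850 to 231438 with E2 in TGFBRi rats, with 5 of 6 higher, and its part in the sterol results was not tested. Of 13 genes of fatty acid synthesis tested, 4 were higher and 0 lower with E2 in TGFBRi rats (FADS1 2.44, ACSS2 2.28, ME1 2.13, FADS2 1.88), and 2 higher and 0 lower in vehicle rats. Of 16 other cholesterol synthesis genes 0 were higher and 1 lower with E2 in TGFBRi rats, FDPS, the enzyme before FDFT1 (−1.3), and 0 passed in vehicle rats. In leukocytes 0 of 8 genes passed with E2 in vehicle rats (0.282% of all genes) and 0 of 8 in TGFBRi rats (5.58%). The median change of the 8 genes in luminal cells was −0.60 in vehicle and −0.88 in TGFBRi rats, beside 0 and −0.04 over all genes.

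**Figure D3:**
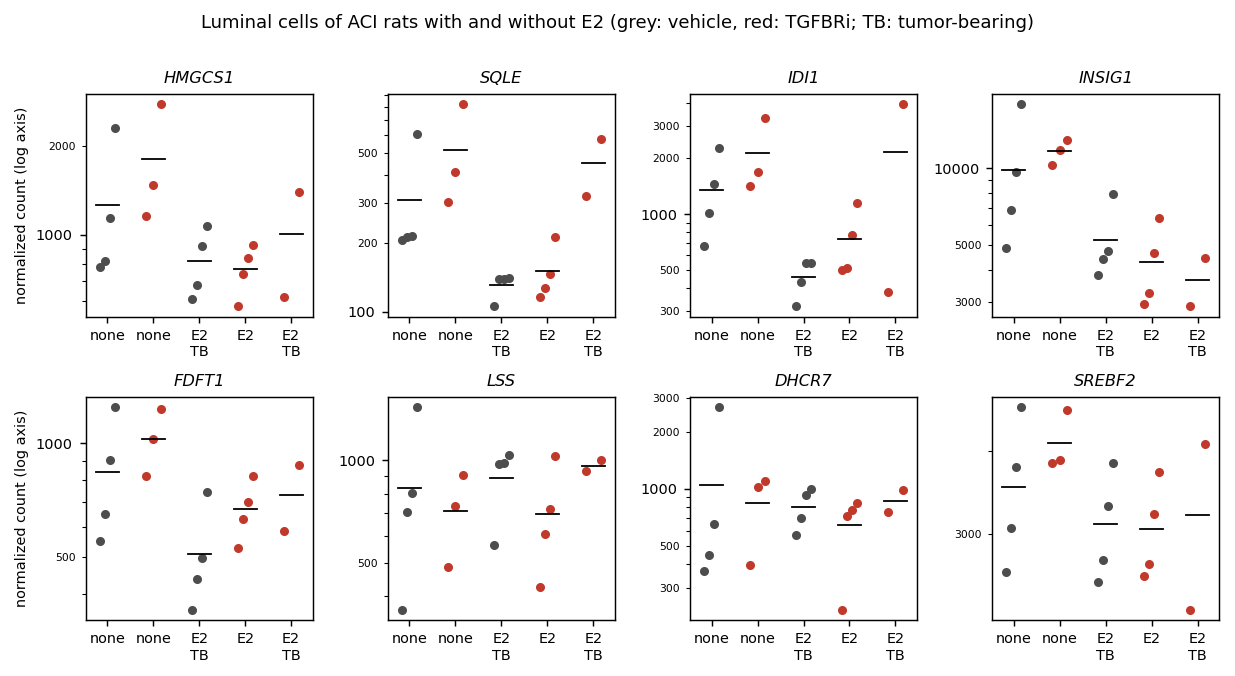
Normalized read counts of the 8 genes in luminal cells of the E2 experiment, by E2, treatment and tumor status, 2 to 4 rats per group, with lines at the means. SQLE is at 105.4 to 213 in vehicle and tumor-free TGFBRi rats with E2, and at 322 and 577 in the 2 tumor-bearing TGFBRi rats.

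The single-cell tables held 160052 cells in 39 libraries, with a median of 2820 to 15941 UMIs per cell by library. Levels are counts per 1000000 UMIs (CPM) of the cells summed per rat, and a change is edgeR's log2 change over rats, which passed at an FDR of 0.1 or less. Classes were named from marker lists, not from an annotation by the authors. In sorted SD cells, 1 basal-like cluster came to 98.4% from 1 library and 1 luminal progenitor-like cluster to 93.5%. Free RNA was not removed, so low levels in a class may hold RNA of other classes. Per the paper, whole glands were prepared with another library kit than sorted cells. Only the sorted cells were filtered on keratin and CD45 reads. Where sorted and whole SD results differ, these steps cannot be told apart from other causes.

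Within the luminal layer of vehicle rats, progenitor-like and mature luminal-like cells differed in SQLE, SREBF2 and DHCR7 in all 3 experiments. SQLE was 22.7, 20.1 and 16.1 CPM in progenitor-like cells of the 3 ACI rats and 53.9, 33.6 and 33.8 in their mature luminal-like cells. DHCR7 was 19, 17.9 and 21.8 against 12.3, 9.31 and 7.18. The log2 differences of progenitor-like from mature cells were −0.83, −1.85 and −1.34 for SQLE in ACI, SD and whole SD glands, 1.23, 0.82 and 0.77 for DHCR7, and −0.79, −0.64 and −0.56 for SREBF2. In these comparisons 3, 7 and 5 of 8 genes passed, and 47.3%, 48.8% and 29% of all genes.

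Basal-like cells had more HMGCS1, SQLE and IDI1 than progenitor-like cells and less DHCR7. In ACI rats DHCR7 was 4.08, 3.34 and 2.51 in basal-like cells, without overlap with the values above. The differences from progenitor-like cells in ACI, SD and whole SD glands were 0.72, 1.44 and 1.51 for HMGCS1, 1.09, 1.72 and 2.39 for SQLE, 1.3, 1.27 and 1.11 for IDI1, and −2.62, −2.77 and −1.38 for DHCR7. Here 7, 6 and 6 of 8 genes passed, with 67%, 54.1% and 48.3% of all genes. Against mature luminal-like cells 6, 5 and 5 of 8 passed, with 69.5%, 59.5% and 52.2% of all genes. SREBF2 was lower in basal-like cells in all 3 (−1.23, −1.0 and −0.41). DHCR7 was lower in them in ACI rats as well, at 4.08, 3.34 and 2.51 against 12.3, 9.31 and 7.18 in mature luminal-like cells, without overlap. In ACI rats HMGCS1 was 101.9, 88.9 and 64.3 in basal-like and 136.5, 79.4 and 69.9 in mature luminal-like cells. SQLE was 48.3, 53.6 and 32.3 against 53.85, 33.6 and 33.8, so both genes overlapped. IDI1, at 115.6, 145.5 and 84.2 against 82.5, 62.55 and 40.75, did not. Of 15 other synthesis genes, 12 were lower and 1 higher in ACI basal-like than mature luminal-like cells (median −1.50).

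With TGFBRi, INSIG1, IDI1 and SQLE were higher in both ACI sorts of single cells. In basal cells INSIG1 was 45.6, 60.8 and 54.8 CPM with TGFBRi and 29.7, 28.7 and 14.4 with vehicle. IDI1 was 149.8, 172 and 201 against 116, 145 and 84.2, and SQLE 51.5, 77.8 and 65 against 48.1, 53.6 and 32.3. INSIG1 and IDI1 did not overlap, and SQLE did, by 1 rat of each group. The changes were 1.35 for INSIG1 (FDR = 0.013), 0.82 for IDI1 (FDR = 0.029), 0.75 for SQLE (FDR = 0.035) and 0.73 for DHCR7 (FDR = 0.039), 4 of 8 genes where 33% of all genes passed. DHCR7 rested on 167 and 145 UMIs and was lost with library totals in place of edgeR's scaling. In bulk basal cells of young ACI rats at day 0 none of the 8 genes passed. SQLE counts there were not higher, at 1017, 1054 and 748 with TGFBRi and 1095, 1434 and 807 with vehicle. IDI1 was 5071, 6791 and 5519.5 against 3990, 4607 and 3992, without overlap. INSIG1 was 4400, 5922 and 7359 against 4067, 4628 and 3363, with overlap.

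In the ACI luminal sort INSIG1 was 67, 161 and 119 with TGFBRi and 57.8, 53.7 and 23.4 with vehicle, without overlap. The changes were 1.66 for INSIG1 (FDR = 0.07), 1.23 for IDI1 (FDR = 0.056) and 0.94 for SQLE (FDR = 0.078), 3 of 8 genes where 25% of all passed; without each rat in turn they were kept in 2, 2 and 1 of 6 fits. Progenitor-like cells gave INSIG1 (1.47, FDR = 0.059) and IDI1 (0.90, FDR = 0.072), 2 of 8 against 28.1% of all genes. Mature luminal-like cells gave 0 of 8 against 25.9%, although DESeq2 passed SQLE, IDI1 and INSIG1 there. Library totals moved the median of all genes from −0.03 to −0.25 in the basal and from −0.01 to −0.28 in the luminal sort, and INSIG1 passed in both with 1.12 and 1.36. In bulk luminal cells of young ACI rats at day 0 these genes did not pass, and all 3 overlapped. INSIG1 was 5471, 5451 and 9058 with TGFBRi and 4821.5, 6555 and 3442 with vehicle. IDI1 was 2557, 1915.5 and 3193 against 1887, 2632 and 2116, and SQLE 689, 483 and 1074 against 443, 905 and 485.

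In sorted SD cells IDI1 and INSIG1 passed in the basal sort, at about the share of all genes, and not in the luminal sort. IDI1 in basal cells was 124, 144, 193, 169, 251 and 207 with TGFBRi in the 6 rats and 124, 136 and 94.2 with vehicle, so the groups overlapped. Its change was 1.03 (FDR = 0.034), and INSIG1 changed by 0.92 (FDR = 0.052), 2 of 8 genes where 24.7% of all passed. In the luminal sort LSS was 15.6, 9.27, 13.7, 11.4, 10.1 and 14.2 with TGFBRi and 24.1, 32.7 and 18.0 with vehicle, with no overlap. It was lower by −0.66 (FDR = 0.048), the 1 gene of 8 that passed where 31.8% of all did. LSS was lower in progenitor-like (−0.68, FDR = 0.07) and mature luminal-like cells (−0.87, FDR = 0.033) as well, 2 of 8 and 1 of 8 genes, with 28.8% and 30.8% of all genes, and IDI1 was the other in progenitor-like cells (0.72, FDR = 0.095). With library totals the median of all genes moved from 0.07 to −0.32 in the basal and from 0.08 to −0.26 in the luminal sort; IDI1 (0.62) and LSS (−1.01) passed and INSIG1 did not. Whether the strains differ was not tested.

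**Figure D4:**
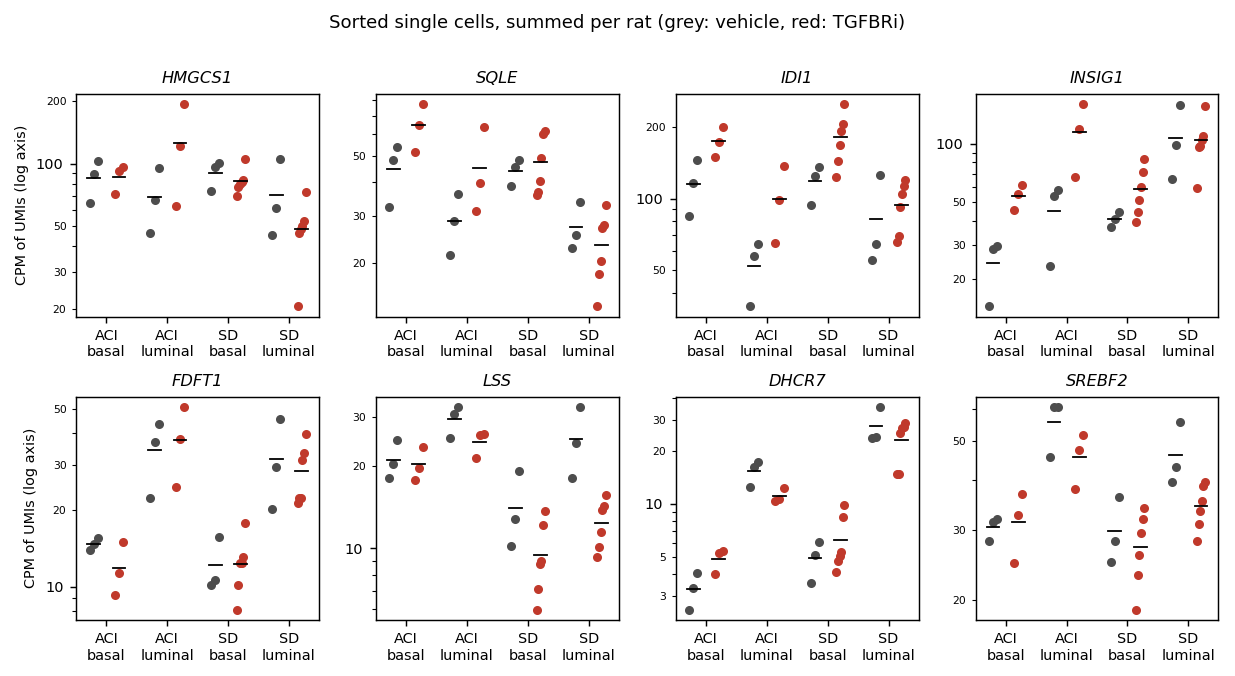
CPM of the 8 genes by rat in sorted basal and luminal single cells of ACI and SD rats, vehicle in grey and TGFBRi in red, with lines at the means. INSIG1 in ACI basal cells is at 45.6 to 60.8 with TGFBRi and 14.4 to 29.7 with vehicle.

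In whole SD glands vehicle replicate 3 stood apart in these genes. Its IDI1 was above that of both other vehicle rats in 13 of 13 classes, by 1.86 to 7.35 times their mean, and above all 8 other rats in 11. Its HMGCS1 was above both in 13 classes and above all others in 7, while its SREBF2 was above both in 3. In T-like cells, for example, IDI1 was 24.4, 27.4 and 190.3 in the 3 vehicle rats and 28.2 to 55.3 with TGFBRi. It also held fewer B-like (982) and progenitor-like (363) and more fibroblast-like (2713) and mural-like (1597) cells than the other vehicle rats. The TGFBRi changes of the 8 genes that passed with or without this rat, which was singled out after the data were seen, are therefore given both ways, while comparisons of classes and counts of other genes include it. Because its IDI1 and HMGCS1 were above both other vehicle rats, leaving it out moves their changes upward in itself. Calls of IDI1 and HMGCS1 gained without it are therefore no added evidence of a treatment effect. Its INSIG1, SQLE and DHCR7 were above both other vehicle rats in 9, 9 and 10 of the 13 classes. In such classes a call gained, or a rise made larger, without it is likewise no added evidence. Over the 13 classes 26 gene tests passed with all rats, 31 passed without it, and 21 passed in both. By class, 3.72% (NK-like) to 44% (basal-like) of all genes passed with all rats. Without it, 5.03% (NK-like) to 42.8% (endothelium-like) passed. The share of all genes that passed rose in some classes without it, to 42.8% in endothelium-like, 37.3% in fibroblast-like and 36% in mural-like cells, and fell in others, to 21.7% in mature luminal-like and 20.6% in progenitor-like cells.

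In mature luminal-like cells 6 of 8 genes were higher with TGFBRi where 29.2% of all genes passed. Without vehicle replicate 3, 5 of 8 were higher, as many as in mural-like and Schwann-like cells. In endothelium-like cells 5 of 8 also passed without it, of which INSIG1 (−0.95) and SREBF2 (−0.34) were lower. HMGCS1 was 224, 51.1, 72.6, 75.2, 54.6 and 96.3 CPM with TGFBRi and 22.6, 17.5 and 31.9 with vehicle, with no overlap, a change of 1.91 (2.12 without vehicle replicate 3). DHCR7 was 35.3, 27.4, 16.8, 22, 16 and 24.5 against 6.97, 10.85 and 9.55, with no overlap, a change of 1.29 (1.3). IDI1 (1.56, then 1.96), SQLE (1.25, then 1.45), LSS (0.83, then 1.08) and FDFT1 (0.79, then 0.88) were the others, and FDFT1 did not pass without that rat. Of 15 other synthesis genes 9 were higher and 0 lower, with a median of 0.50 beside 0.03 over all genes. Sorted SD cells did not show this rise: LSS alone of the 8 genes passed in their mature luminal-like cells, and it was lower.

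Although it did not pass in progenitor-like cells of the sorted SD rats, DHCR7 rose in those of whole glands, where its vehicle level was highest. It was 54.5, 105.3, 31.1, 27.7, 21.4 and 55 with TGFBRi and 10.7, 12.6 and 14.6 with vehicle, a change of 1.95 (FDR = 0.033; 2.04 without vehicle replicate 3). FDFT1 (0.65, then 0.55) was higher and INSIG1 (−0.99, then −0.98) lower with all rats, and neither passed without that rat; 3 of 8 genes passed where 29.4% of all did. Basal-like cells gave 1 of 8, FDFT1 (−0.92, then −0.96), where 44% of all genes passed. INSIG1 (0.49, then 0.81) passed only without that rat, which is no added evidence. IDI1 and INSIG1, which passed in sorted SD basal cells, did not pass here with all rats.

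DHCR7 was higher with TGFBRi in stromal classes too, from low levels. In fibroblast-like cells it was 3.93 to 6.97 CPM in the 6 TGFBRi rats (288 UMIs) and 0.686, 1.16 and 1.93 with vehicle (60 UMIs), a change of 1.80 (then 2.41). In endothelium-like cells the change was 1.56 (1.99) and in mural-like cells 1.63 (2.39), on 26 and 22 UMIs in vehicle cells. The larger changes without vehicle replicate 3 are no added evidence. The milk protein list in fibroblast-like cells, a sign of RNA from luminal cells, was 1822, 658 and 97.7 CPM in vehicle rats and 163 to 1338 in TGFBRi rats, with overlapping ranges. In endothelium-like cells it was higher, 11196, 14279 and 3029.7 in vehicle and 3243 to 20029 in TGFBRi rats, which also overlapped, and its part in the DHCR7 changes was not tested. In T-like cells DHCR7 was 5.76, 4.85 and 9.34 with vehicle and 7.00 to 8.76 with TGFBRi. A list of dissociation genes was higher with TGFBRi in fibroblast-like (5558 to 9720 against 3205 to 4252) and mural-like cells (8274 to 11516 against 5875 to 6212), and its part was not tested.

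INSIG1 was lower in fibroblast-like and endothelium-like cells. It was 197, 194, 187, 205, 187 and 240.5 with TGFBRi in fibroblast-like and 386, 317 and 262.5 in vehicle cells, and 122, 135, 121, 139.7, 125 and 147 against 225, 223 and 252 in endothelium-like cells. Neither overlapped, and the changes were −0.86 (then −0.94) and −1.03 (then −0.95). SQLE was lower in fibroblast-like cells (−0.54, then −0.67), so 3 of 8 genes passed there where 29% of all did, and 2 of 8 in endothelium-like cells with 32.1%. Mural-like cells gave 3 of 8 with 27.5%, LSS (0.88, then 1.28) and SREBF2 (0.53, then 0.55) beside DHCR7. Without vehicle replicate 3, HMGCS1 passed in fibroblast-like (0.43), endothelium-like (0.46) and mural-like cells (0.76), and IDI1 in endothelium-like (0.37) and mural-like cells (1.19), where 37.3%, 42.8% and 36% of all genes passed, each a larger share than with all rats. Leaving out a vehicle rat picked for high IDI1 and HMGCS1 favours these calls in itself. With all rats the changes were 0.15, −0.28 and 0.14 for HMGCS1 and −0.98 and −0.24 for IDI1. SREBF2 in endothelium-like cells passed without that rat as well, as a lower level (−0.20, then −0.34).

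Schwann-like cells had the highest vehicle level of HMGCS1, SQLE, FDFT1 and LSS, and 3 of the 8 genes were higher in them with TGFBRi. In vehicle rats HMGCS1 was 225 to 418, SQLE 111 to 214, FDFT1 71.4 to 100.8 and LSS 28.9 to 45.2 CPM, each without overlap with the next class; their IDI1 (407 to 929) overlapped mural-like cells, the next. With TGFBRi, SQLE (0.72, then 0.79), INSIG1 (0.66, then 0.86) and FDFT1 (0.65, then 0.70) passed, 3 of 8 where 10.7% of all genes did. HMGCS1 (0.62, then 0.91) and IDI1 (0.38, then 0.83) passed only without vehicle replicate 3, where 12.5% of all genes did, and the choice of that rat favours both. FDFT1 was 161, 154, 145, 141, 138 and 116 with TGFBRi and 100.8, 71.4 and 82.9 with vehicle, without overlap. Of 15 other synthesis genes 7 were higher and 0 lower (median 0.57, beside −0.03 over all genes). These cells numbered 40 to 126 per TGFBRi rat and 147 to 240 per vehicle rat, and the dissociation list was higher with TGFBRi here as well (10164 to 15230 against 6901 to 8113).

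The immune classes gave few calls. B-like cells had lower SQLE (−0.57, then −0.40) and higher DHCR7 (0.75, then 0.92), 2 of 8 where 17% of all genes passed. Their INSIG1 changed from −0.80 to 0.29 and passed only without vehicle replicate 3, which is no added evidence. Macrophage-like cells had higher SREBF2 (0.69, then 0.65) and lower IDI1 (−1.03), which did not pass without that rat (−0.32), 2 of 8 with 7.44%. Dendritic-like cells had lower INSIG1 (−0.97, and −0.57 without that rat, when it did not pass), 1 of 7 with 4.78%. T-like (6.37%), NK-like (3.72%) and lymphatic endothelium-like cells (15.9%) gave 0 of 8, 0 of 8 and 0 of 6.

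**Figure D5:**
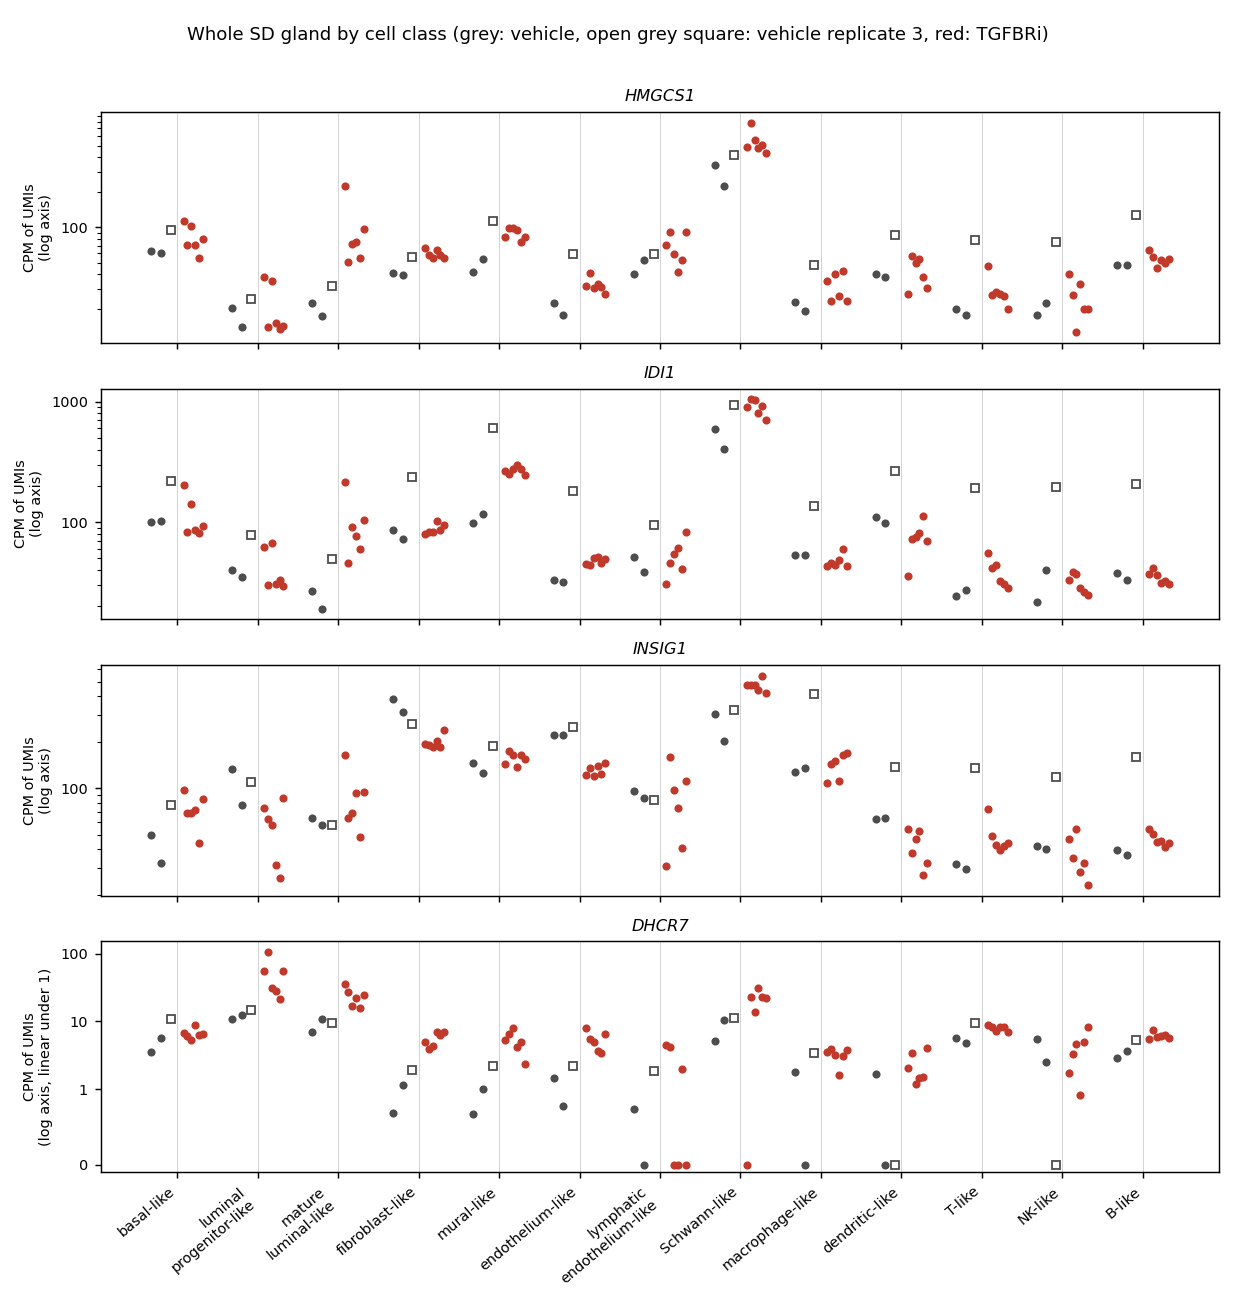
CPM of HMGCS1, IDI1, INSIG1 and DHCR7 by rat in 13 classes of whole SD glands (log axes, for DHCR7 linear near 0), vehicle in grey and TGFBRi in red, with open squares for vehicle replicate 3. IDI1 of that rat lies above all 8 other rats in 11 classes, and DHCR7 is highest in progenitor-like cells with TGFBRi.

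The order of levels over the classes in vehicle rats differed between the enzymes. DHCR7 was highest in progenitor-like (10.7 to 14.6) and then mature luminal-like cells (6.97 to 10.85), which overlapped, and HMGCS1 was lowest in progenitor-like cells (14.2 to 24.6), overlapping mature luminal-like cells (17.5 to 31.9). INSIG1 was highest in fibroblast-like (262.5 to 386) and Schwann-like cells (205 to 326), which overlapped. SREBF2 varied least, from 23.2 to 25.2 in mural-like to 64.7 to 82.1 in B-like cells, with each class overlapping the next.

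Across the 196 bulk samples of one rat and fraction, as deviations from the means of 59 groups, the genes did not all vary together. The correlation of each gene with the mean of the other 7 was 0.58 for HMGCS1, 0.52 for SQLE, 0.51 for FDFT1 and 0.42 for INSIG1, but 0.28 for SREBF2, 0.11 for IDI1, 0.11 for LSS and 0.03 for DHCR7. By fraction HMGCS1 had 0.77 in luminal, 0.57 in basal and 0.06 in CD45+ cells, SQLE 0.72, 0.45 and 0.21, and FDFT1 0.66, 0.46 and 0.07. Without the 7 libraries that stood apart IDI1 had 0.30. Of 9771 other genes ranked by their correlation with the mean of the 8, those most alike included CYP51 (0.69), MSMO1 (0.62), PDP2 (0.50), ACSL5 (0.47), VCP (0.45), FAF1 (0.43), ERAP1 (0.42) and EZR (0.41), beside a median of 0.015 over all genes. These samples share fractions, rats and depth, so the values are descriptions only. CYP51 and MSMO1 encode enzymes of the same pathway.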

How the data were processed

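Bulk libraries (202 samples, 196 of one rat and fraction) and 39 single-cell libraries were used. Per the submitters' processing notes the authors used STAR 2.5.1b, HTSeq and DESeq2 1.30.1 for bulk and Cell Ranger 4.0.0 or 7.0.0 for single cells, with the rat build rn6. The deposited bulk signal is read counts per gene divided by DESeq2 size factors. Every value above 0 was a whole multiple of its sample's step (tolerance 0.001; steps 0.457 to 4.003, 7 samples near 1), so reads were recovered. Rows for reads with no gene, 23.1% to 42.5% in 85 samples, were left out. The deposited single-cell files hold UMI counts per gene and cell. The authors scaled basal and luminal cells together in young ACI and SD rats only, so leukocytes were not tested against epithelium. Depth sets precision: DHCR7 rested on few UMIs in stromal classes.

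Bulk values were tested as log2(value + 1) with limma 3.58.1 (trend, robust), keeping genes whose values summed to 10 or more, all groups of a fraction and experiment in 1 model, at a Benjamini-Hochberg adjusted p of 0.05; fold changes on this scale understate those of low genes. UMI sums per rat were tested with edgeR 4.0.16 (quasi-likelihood, TMM), genes with at least 10 UMIs, at 0.1. Both were tested on simulated data. Cells were clustered with scanpy 1.11.5 (2000 variable genes, resolution 0.8). A class was named from at least 3 markers and entered a test with at least 10 cells of a rat. Scrublet called 0% to 18.36% of cells by library, so doublets were handled by leaving out the 6% highest scores. Alternatives were DESeq2 1.42.0 and edgeR on recovered reads, RPM, another pseudocount (5), filters, fits of the compared groups alone, a replicate block and each rat left out; the complex I covariate, the libraries left out and some single-cell repeats were added after the data were seen. The rule for named genes was all 8 genes in every comparison, up to 4 called genes of each sterol list and the 10 genes most alike. The 8 genes, the lists and the comparisons were chosen with earlier results of these data known. Upstream sequences are RefSeq's on GRCr8. Some genes that the rule names are not reported here.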

Additional observations from a re-analysis of the deposited data

Results flagged for a closer look

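For groups of 4 to 10 rats the highest or lowest value was compared with the gap that chance gives in about 1 in 20 groups, and 31 of 336 groups had such a rat. The bulk values are normalized counts.

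In E2 leukocytes INSIG1 was 6903 in 1 vehicle rat without E2 and 9012 to 9204 in the others. In luminal cells of the same group SQLE was 604 in 1 rat (others 208 to 214) and DHCR7 2700.2 in 1 rat (369 to 650). In luminal cells of vehicle rats with E2, SQLE was 105.4 in 1 rat (139 to 140) and LSS 566 in 1 rat (975.2 to 1038). In adult leukocytes SQLE was 582 in 1 virgin vehicle rat (332 to 359) and 295 in 1 parous TGFBRi rat (347 to 357), and INSIG1 was 14607 in 1 parous TGFBRi rat (7440.5 to 8608). In adult epithelium INSIG1 was 7718 in basal cells of 1 virgin vehicle rat (1518 to 2503), HMGCS1 3553 in luminal cells of 1 virgin vehicle rat (919 to 1366), and DHCR7 2410.3 in luminal cells of 1 parous TGFBRi rat (2118 to 2148). In young SD rats LSS was 711 in vehicle leukocytes of 1 rat (287 to 347), HMGCS1 1693.5 in vehicle basal cells of 1 rat (3347 to 3532.5), and IDI1 2406 in TGFBRi luminal cells of 1 rat (461 to 701).

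In sorted SD single cells, in counts per 1000000 UMIs, 1 TGFBRi rat had SQLE at 22.8 (others 5.7 to 11), IDI1 at 105.8 (39.2 to 61.2) and FDFT1 at 28 (10.7 to 15) in luminal progenitor-like cells. HMGCS1 was 33.7 in mature luminal-like cells of 1 TGFBRi rat (89 to 112), and in the few mural-like cells HMGCS1 was 53.8 (87.9 to 104.6), INSIG1 363 (154 to 213) and DHCR7 34.2 (0 to 6.15) in 1 rat each. In whole glands with TGFBRi, 1 rat each had HMGCS1 at 784 in Schwann-like cells (429.8 to 560.1), at 46.6 in T-like cells (19.9 to 27.9) and at 224 in mature luminal-like cells (51.1 to 96.3). INSIG1 was 73.8 in T-like (39.9 to 49) and 240.5 in fibroblast-like cells (187 to 205), and LSS 4.04 in endothelium-like (1.07 to 2.17) and 29.6 in mature luminal-like cells (15 to 19.7). IDI1 was 60.3 in macrophage-like (42.9 to 48.3) and 214 in mature luminal-like cells (45.5 to 103.8), and DHCR7 1.61 in macrophage-like cells (3.1 to 3.91).

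Some TGFBRi effects went opposite ways in 2 settings with no overlap of the groups in either. FDFT1 in young ACI basal cells changed by −0.52 at day 7 and 0.60 at day 14, and by −0.31 and 0.27 without the libraries that stood apart. SQLE in young ACI leukocytes changed by 0.80 at day 0, −0.77 at day 7 and 1.27 at day 14, and the test of day 7 against day 0 gave −1.57 (limma adjusted p = 0.34). DHCR7 in luminal progenitor-like cells was below vehicle in ACI rats (mean 14.6 with TGFBRi) and above it in whole SD glands. INSIG1 in fibroblast-like cells was above the 1 vehicle rat with enough cells in sorted SD cells (mean 307 with TGFBRi) and below vehicle in whole glands. That vehicle rat had 16 such cells, so no treatment effect can be read in the sorted cells. The paper kept sorted cells by their keratin reads, so the 2 classes may not hold the same cells. LSS in mature luminal-like cells was below vehicle in sorted SD cells (mean 13.8 with TGFBRi) and above it in whole SD glands. Apart from the SQLE contrast given, these differences were not tested.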

How the results depend on the processing

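The counts here are of the 8 genes alone. The share of all genes in each alternative fit is not given beside them, so whether calls over all genes moved alike is not shown. For TGFBRi against vehicle in bulk the 2 calls among the 8 genes became 11 with DESeq2, 4 with RPM, 1 with the compared groups alone, 7 without the young ACI libraries that stood apart and 12 with the complex I level as a covariate, and ranged from 1 to 5 when each rat was left out. For differences of the TGFBRi effect 0 became 2 with DESeq2 and 2 with the covariate (0 to 0 without each rat). For parity 2 became 0 with the compared groups alone (1 to 3 without each rat), and for E2 2 became 1 with the compared groups alone, 1 with RPM and 3 with DESeq2 (0 to 2 without each rat). For days in vehicle rats 0 became 4 with DESeq2, 7 with the covariate, 3 with the compared groups alone, 1 with RPM and 9 without the libraries that stood apart (0 to 0 without each rat). For tumor status 0 became 2 with DESeq2 (0 to 2). The calls between lineages (12) ranged from 10 to 13 without each rat, in single cells those with TGFBRi (47; 43 with library totals, 55 with DESeq2) from 42 to 50 and those between classes (50) from 44 to 53; with the rat as a replicate block, which pairs fractions or classes of one rat, they were 12 and 58. HMGCS1 in young ACI basal cells at day 0 reversed to −0.70 with the covariate, which separated the groups at day 0 (440 to 916 RPM with TGFBRi and 1820 to 2310 with vehicle in basal, 865 to 1320 and 1580 to 2010 in luminal cells), so that covariate and treatment cannot be told apart there. When each rat was left out, whole-gland INSIG1 in B-like cells ranged from −1.21 to 0.29, HMGCS1 and IDI1 in endothelium-like cells from −0.59 to 0.46 and from −1.38 to 0.37, and IDI1 in mural-like cells from −0.67 to 1.19, each above 0 only without vehicle replicate 3. The cause was not tested.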
